A study of Mus musculus with 2 samples.

Results

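The genes of glycolysis and of the transcriptional response to low oxygen were read across the immune cells of mouse tumours. The set was a fixed list of 35 gene symbols, and all 35 were present. They occupied 36 of the 31053 gene entries (31017 symbols), because Aldoa was entered 2 times and its counts were added. One group held 18 glycolysis and transporter genes and the other 17 hypoxia response genes. Glycolysis breaks glucose down to pyruvate in the cytosol, and lactate dehydrogenase and a lactate exporter carry off the product when oxygen is short or demand is high. When oxygen falls, prolyl hydroxylases stop marking the HIF-1α protein for destruction, and HIF-1 then turns on glycolytic enzymes, glucose transporters, angiogenic signals and mitophagy receptors. In tumours this programme is known from poorly perfused regions, and myeloid cells there are known to depend heavily on glycolysis.

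CD45, a surface protein shared by leukocytes, was used to sort immune cells from tumours of C57BL/6 mice, and 5′ single-cell libraries were made on a droplet platform. The label WT and the label Ythdf2 cKO each had 1 library. Ythdf2 reads the m6A mark, binding methylated mRNA and speeding its decay, and cKO is the usual short form for conditional knockout. The series title names the role of this reader in tumour-associated macrophages as its question. For the allele, the Cre driver, the age and sex of the mice, the tumour line and the number of tumours per library, the sources used here give nothing. With 1 library per label there is no replicate and no test of any difference between the labels, and cells of a library are not replicates, so every value describes this pair of libraries. Values in brackets are exact 95% intervals, Poisson for levels and Clopper-Pearson for ratios and shares, and they cover counting error only.

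Depth was given by UMIs (unique molecular identifiers, each marking 1 captured mRNA): 128952491 over 14404 barcodes for the label WT and 121321782 over 11398 barcodes for the label cKO. Filtering kept 12179 and 9865 cells with median depths of 5592 and 8480 UMIs, and 43 barcodes occurred in both libraries. Ythdf2 itself went against the label: in macrophages it stood at 81.5 CPM (78.8 to 84.3) in the library labelled WT against 436 CPM (422 to 451) in that labelled cKO. It was higher in the latter in all 9 classes of cells, by unlike amounts. Monocytes read 53.3 and 399 CPM and neutrophils 57.1 and 334, against 60.8 and 83.4 in CD8 T cells and 56.03 and 72.3 in NK cells. In B cells, at 48.3 CPM (33.3 to 67.8) and 53.96 CPM (37.6 to 75.05), the intervals overlapped. Because the deleted exons are not given and 5′ tags may lie outside them, this reading does not check the deletion, and the groups are called by their labels throughout. Levels are CPM, in which the UMIs of a gene are divided by all UMIs of a class and scaled to the same total in every class. A gene was called higher or lower when log2(CPM + 1) differed by at least 1.5-fold, among genes of at least 10 CPM on either side. A gene that reached 10 CPM on 1 side only had to differ to be tested at all. Counts of called members are therefore also given for those that reached it on both sides. They were not counted this way for cells of single states divided by Bnip3 or for the alternatives.

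Cells were placed in classes by marker genes, none of them a member of the set. Macrophages (2264 cells labelled WT and 415 labelled cKO) carried at least 20 C1q UMIs per 10000. Monocytes (2004 and 2351) carried Ly6c2, Vcan or non-classical markers with C1q below that minimum, and C1qa still read 77.8 and 39.3 CPM in them. Neutrophils (223 and 81) carried S100a8 and related genes. The other classes were CD8 T cells (646 and 1778), other T cells (2315 and 1391), NK cells (1228 and 1565), B cells (276 and 176), dendritic cells (634 and 365) and melanocytic cells (201 and 22). Ptprc, which encodes CD45, was found in every class and was lowest in the melanocytic cells, at 30.7 and 60.3 CPM against 439 and 547 in macrophages. Melanocytic markers were also read in the immune classes, and unequally: the 4 of them summed to 63.5 and 24.6 CPM in macrophages, 69.3 and 9.56 in monocytes, 73.9 and 7.47 in CD8 T cells and 97.1 and 8.96 in NK cells, labels WT and cKO in turn, with none of the 4 at 0. Within the macrophage class, the 6 macrophage markers summed to 12811 and 8774 CPM and the 5 monocyte markers to 1226 and 3900 CPM. The 3 genes of the Thbs1 gate summed to 236 and 458 CPM there. The library labelled cKO thus had more monocyte transcripts in cells gated as macrophages. Lyz2, one of the lineage genes of the gates, read 4416 and 2420.3 CPM in macrophages and 8902 and 4418 in monocytes. The part of these differences in the results below was not tested.

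HIF-1 is known to bind the core ACGTG in promoters, so the 250 bases before each start site were searched for it on both strands, where it reads CACGT on the other strand and overlaps the palindrome CACGTG. RefSeq (GRCm38.p6) held promoters for 32 of the 35 genes, 1 of them through a synonym (Ero1l), in 45 start sites. Promoters of Slc2a3, Ndrg1 and Bnip3l were not used here. The core occurred in 23 of the 45 (51.1%) and in 5444 of all 32851 mouse promoters of this length (16.6%). It was found in 13 of 20 promoters of hypoxia response genes (65.0%) and in 10 of 25 of glycolysis and transporter genes (40%). The variant GCGTG, searched in the same way, occurred in 25 of the 45 (55.6%) and in 9250 of all promoters (28.2%). By group it was found in 13 of 20 and 12 of 25, and it is not marked in the sequences shown. The member promoters were also richer in CG pairs, which the core contains, with a median of 16 against 6 in all promoters. A match describes letters in a window and does not show binding.

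7 promoters are shown in the reading direction of the gene, with ACGTG or CACGT in capitals. Egln3 (chr12:54203875-54204124, minus strand), Ero1l (chr14:45318573-45318822, minus) and Bnip3 (chr7:138909507-138909756, minus) are shown because these hypoxia genes separated the myeloid states most or marked cells in the results below. Ldha (chr7:46845554-46845803, plus) and Pgk1 (chrX:106186850-106187099, plus) are shown as enzymes of the pathway with several cores. Slc16a3 (chr11:120948817-120949066, plus) and Hk3 (chr13:55021386-55021635, minus) are shown because they had the highest ratios between the libraries in macrophages.
Egln3: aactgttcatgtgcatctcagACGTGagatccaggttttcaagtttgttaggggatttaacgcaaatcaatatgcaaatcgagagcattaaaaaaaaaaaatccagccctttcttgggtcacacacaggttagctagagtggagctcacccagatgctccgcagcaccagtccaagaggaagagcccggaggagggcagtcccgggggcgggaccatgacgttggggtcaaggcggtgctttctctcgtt
Ero1l: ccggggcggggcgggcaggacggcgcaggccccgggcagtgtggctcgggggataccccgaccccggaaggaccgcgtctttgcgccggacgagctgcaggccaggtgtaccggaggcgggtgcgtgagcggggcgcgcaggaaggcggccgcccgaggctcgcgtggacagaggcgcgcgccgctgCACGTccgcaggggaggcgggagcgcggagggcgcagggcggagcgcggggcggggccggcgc
Bnip3: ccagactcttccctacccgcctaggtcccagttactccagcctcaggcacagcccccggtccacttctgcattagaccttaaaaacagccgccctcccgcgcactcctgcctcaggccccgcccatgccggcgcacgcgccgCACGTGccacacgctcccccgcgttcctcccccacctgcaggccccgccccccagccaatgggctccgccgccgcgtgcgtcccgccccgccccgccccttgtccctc
Ldha: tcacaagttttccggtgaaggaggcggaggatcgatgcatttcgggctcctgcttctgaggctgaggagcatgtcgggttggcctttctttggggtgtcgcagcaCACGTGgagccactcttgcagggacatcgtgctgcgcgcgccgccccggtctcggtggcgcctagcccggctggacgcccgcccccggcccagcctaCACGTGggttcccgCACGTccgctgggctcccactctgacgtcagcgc
Pgk1: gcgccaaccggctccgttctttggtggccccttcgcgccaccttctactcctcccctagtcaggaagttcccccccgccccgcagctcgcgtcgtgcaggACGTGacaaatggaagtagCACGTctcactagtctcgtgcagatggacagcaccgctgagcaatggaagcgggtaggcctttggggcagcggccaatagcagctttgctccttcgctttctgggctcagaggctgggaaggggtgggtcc
Slc16a3: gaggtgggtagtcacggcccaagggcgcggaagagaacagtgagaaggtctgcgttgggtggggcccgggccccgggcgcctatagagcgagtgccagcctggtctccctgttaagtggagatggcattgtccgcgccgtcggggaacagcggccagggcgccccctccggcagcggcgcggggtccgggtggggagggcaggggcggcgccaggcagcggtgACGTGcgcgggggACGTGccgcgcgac
Hk3: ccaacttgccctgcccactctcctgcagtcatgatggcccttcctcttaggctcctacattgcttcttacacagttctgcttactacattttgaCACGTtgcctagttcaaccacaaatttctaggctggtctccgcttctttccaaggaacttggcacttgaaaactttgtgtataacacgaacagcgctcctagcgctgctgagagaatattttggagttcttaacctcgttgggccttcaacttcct
The Ldha promoter shown held the palindrome CACGTG at 2 places and a further CACGT close by, and Bnip3 held the palindrome at 1 place. The other Ldha start site (window chr7:46846832-46847081) held no ACGTG core on either strand. Egln3 and Hk3 each held a single core in the part of the window away from the start site, whereas in Slc16a3 both cores lay at the end next to it.

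Across the classes, most of the set was highest in phagocytes and lowest in B cells. Among the 8 immune classes, the highest level fell in macrophages, monocytes or neutrophils for 31 of the 35 genes in the library labelled WT and for 27 in that labelled cKO, and the lowest in B cells for 24 and 28. The same class was highest in both libraries for 22 genes. Cells with melanocytic transcripts lay above every immune class for 20 and 23 genes.

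**Figure D1:**
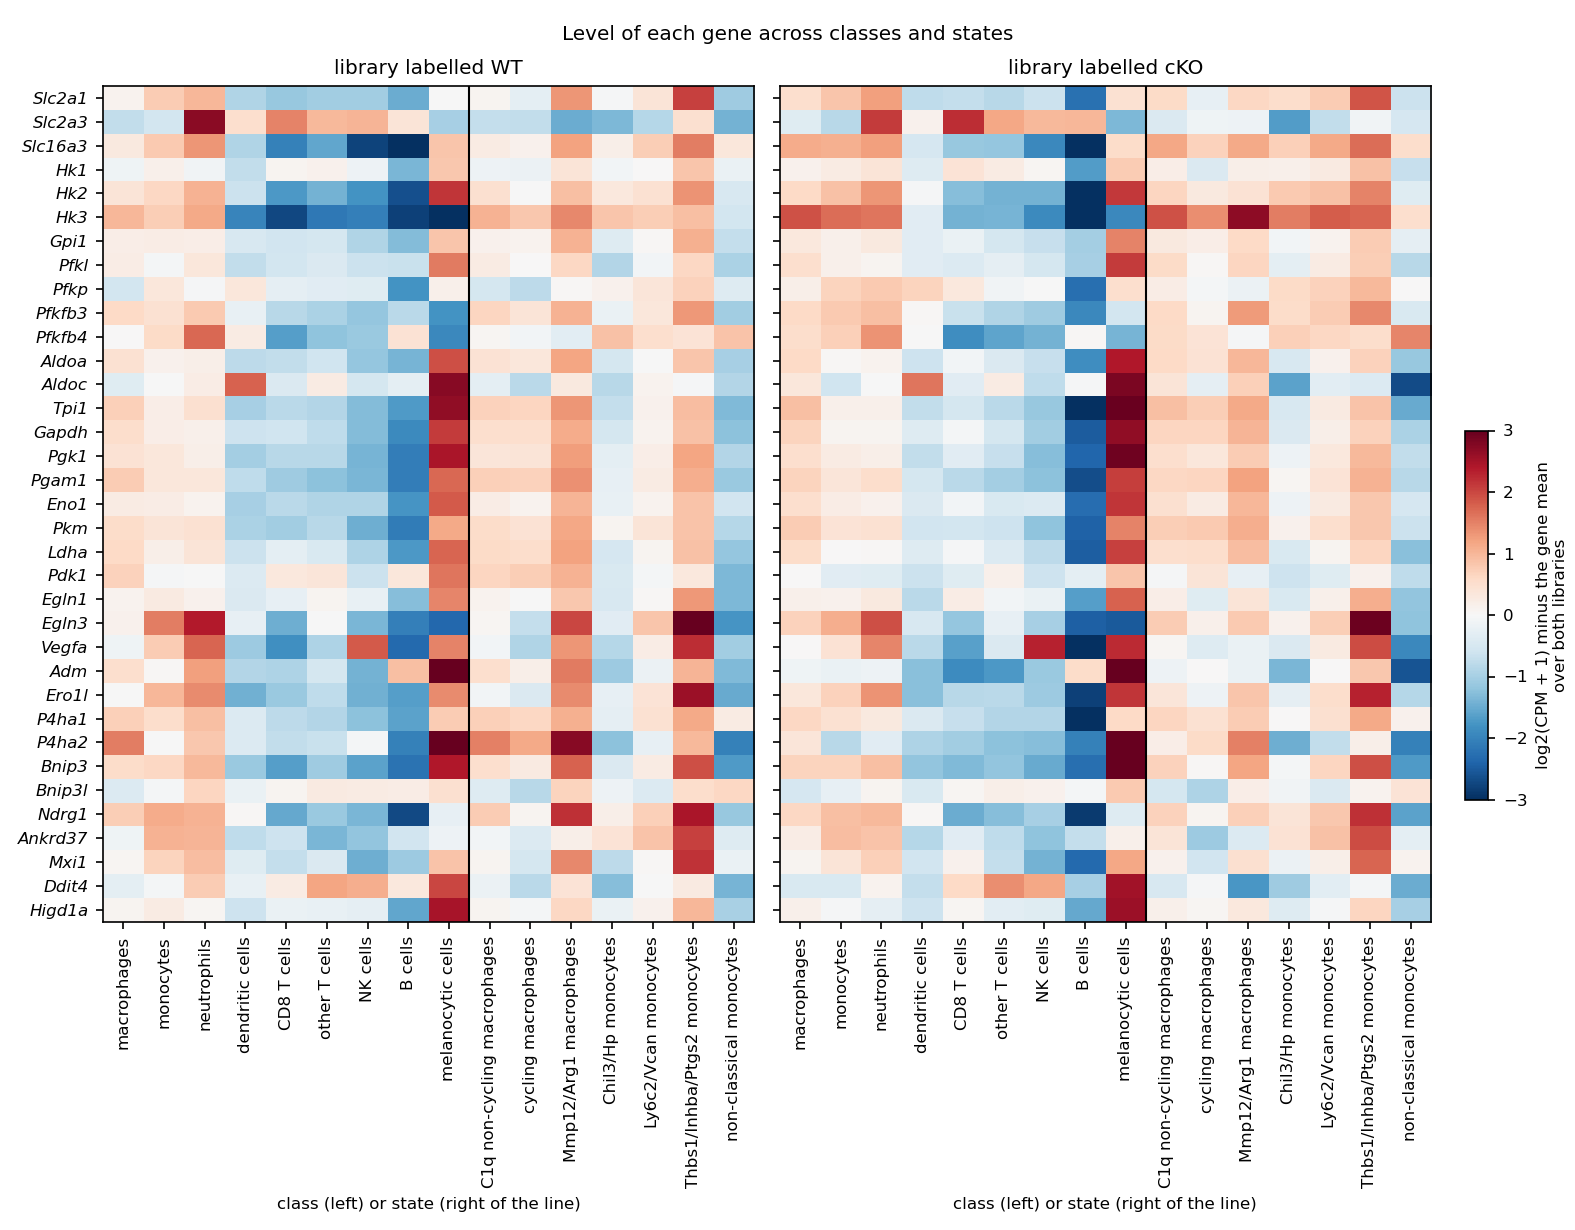
Level of each of the 35 genes (rows) in 9 classes and 7 myeloid states (columns), as log2(CPM + 1) minus the mean of that gene over both libraries, for the library labelled WT (left) and the library labelled cKO (right), with colours ending at 3 in both directions. Thbs1/Inhba/Ptgs2 monocytes are red for most genes in both panels and B cells and non-classical monocytes are blue, while Hk3 is darker red in myeloid cells on the right.

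The transporters differed in where they were found. Slc2a1, the basal glucose transporter GLUT1, was highest in neutrophils at 223 CPM (197 to 252) in the library labelled WT against 263 CPM (231 to 299) in that labelled cKO, and lowest in B cells at 39.5 and 23.1 CPM. Slc2a3, the high-affinity transporter GLUT3, was found mainly in neutrophils (113 and 73.8 CPM) and CD8 T cells (47.7 and 79.9), with monocytes at 10.9 and 8.83 CPM and macrophages at 9.38 and 12.6. Neutrophils thus exceeded monocytes by a ratio of 10.3 (8.13 to 12.98) and of 8.35 (6.31 to 10.9). Slc16a3, the lactate exporter MCT4, was highest in myeloid cells among the immune classes, at 248 and 233 CPM in neutrophils, with melanocytic cells at 178 and 145 and 8.78 and 9.25 CPM in B cells.

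The enzymes of the main chain were richest in phagocytes and melanocytic cells. Gapdh, the dehydrogenase in the middle of the pathway, read 2625 and 2897 CPM in macrophages, 2072 and 1925 in monocytes, 737 and 877 in NK cells and 480.2 and 322 in B cells. It was higher still in melanocytic cells, at 7727 and 11421 CPM. Of the hexokinases, which trap glucose as its phosphate, Hk3 was the myeloid form, with 95.5 and 179.9 CPM in macrophages against 10.7 and 11.9 in NK cells. Hk1, the housekeeping form, was not myeloid, with 51.7 and 56.04 CPM in monocytes, 49.6 and 62.02 in CD8 T cells and 17.6 and 13.9 in B cells. Aldoc, the minor aldolase, peaked in dendritic cells at 40.3 CPM (34.8 to 46.3) and 35.6 CPM (30.7 to 41.1). Some of these genes share sequence with copies that the counting could have split: 53.9% of 50-base stretches of Pgk1 transcripts, 36.2% of Pgam1, 26.0% of Eno1, 25.8% of Pkm, 24.7% of Gapdh, 20.8% of Bnip3l and 16.5% of Bnip3 also occurred in transcripts of other genes, so their levels are uncertain. For 15 members, among them Hk3, Slc16a3, Pfkp, Slc2a1 and Egln3, no stretch was shared.

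Among the hypoxia response genes, Egln3, the prolyl hydroxylase that HIF induces as its own brake, was found mainly in neutrophils and monocytes. It stood at 115 CPM (96.4 to 136) and 84.8 CPM (66.9 to 106) in neutrophils, and at 63.9 and 46.5 CPM in monocytes, with B cells at 4.39 and 3.08. Vegfa, the angiogenic growth factor, was an exception to the myeloid pattern. NK cells held 200.3 CPM (188 to 213) and 278 CPM (268 to 288), the highest level of the immune classes in both libraries, next to 188 CPM (164 to 215) and 155 CPM (131 to 183) in neutrophils, while CD8 T cells held 14.8 and 17.2 CPM. NK cells exceeded CD8 T cells by a ratio of 13.5 (10.47 to 17.8) and of 16.2 (14.4 to 18.3). The ratio of Egln3 between the same classes was 1.06 (0.638 to 1.78) and 1.14 (0.881 to 1.46). Ddit4, an inhibitor of the growth kinase mTORC1 that stress hormones also induce, was highest in other T cells (38.7 and 44.8 CPM) and NK cells (35.9 and 37.97). Neutrophils rested on 223 and 81 cells with median depths of 1924 and 4102 UMIs.

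In macrophages, the library labelled cKO had more transcripts of a few glycolysis and transporter genes, and no hypoxia response gene was called higher. Of the 18 glycolysis and transporter genes, 4 were called higher (8.58% of 7999 genes tested were) and 0 lower (10.1%). The median log2 ratio of the 18 genes was 0.23, with 16 above 0, beside −0.09 for all genes tested. Of the 16 hypoxia response genes tested, 0 were higher and 2 lower, with a median of 0.03 and 9 above 0. Altogether 28 of the 34 tested members lay within 1.5-fold. Both sides reached 10 CPM for 3 of the 4 genes called higher and for 1 of the 2 called lower, since Aldoc and P4ha2 reached it on 1 side only.

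The genes called higher were Hk3, Slc16a3, Aldoc and Pfkp. Hk3 stood at 95.5 CPM (92.6 to 98.6) in the library labelled WT against 179.9 CPM (171 to 189.5) in that labelled cKO, a ratio of 1.88 (1.77 to 2.001). Slc16a3 stood at 121 CPM (117 to 124) and 214 CPM (204 to 225), a ratio of 1.78 (1.68 to 1.88). Pfkp, the platelet form of phosphofructokinase, the committing step of glycolysis, stood at 134 CPM (130.3 to 137) and 220.5 CPM (210.2 to 231), a ratio of 1.65 (1.56 to 1.74). Intervals did not overlap for any of these 3 genes. Aldoc was low in both, at 8.36 CPM (7.5 to 9.29) and 14.3 CPM (11.8 to 17.3). When the classes were taken from Leiden clusters in place of marker gates, all 4 fell below 1.5-fold, with log2 ratios of 0.55 for Hk3, 0.38 for Slc16a3, 0.45 for Pfkp and 0.54 for Aldoc, so these calls rest on how macrophages were defined. Aldoc also fell below it at a pseudocount of 10 CPM (0.41), with doubled marker minima (0.52) and with equal weight per cell (0.57).

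The other 14 glycolysis and transporter genes lay within 1.5-fold in macrophages. Slc2a1 read 120.4 CPM (117 to 124) and 159 CPM (151 to 169), a ratio of 1.32 (1.24 to 1.41). The lowest ratio of the group was that of Pgam1, the mutase that precedes enolase, at 0.933 (0.906 to 0.961). Ldha, which reduces pyruvate to lactate, read 1045 and 1009 CPM, and Gapdh differed by 1.104-fold.

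The 2 hypoxia response genes called lower in macrophages were P4ha2 and Pdk1. P4ha2, a collagen prolyl hydroxylase, stood at 10.7 CPM (9.73 to 11.8) and 4.23 CPM (2.91 to 5.94), from 442 and 33 UMIs. Pdk1, the kinase that inhibits pyruvate dehydrogenase, stood at 37.6 CPM (35.7 to 39.5) and 23.1 CPM (19.8 to 26.7). Pdk1 left the call with Leiden clusters (−0.40), with cells thinned to a common depth before gating (−0.30), at a pseudocount of 10 CPM (−0.53) and with equal weight per cell (−0.55), and P4ha2 at a pseudocount of 10 CPM (−0.54). In the other direction Egln3 stood at 23.3 CPM (21.9 to 24.8) and 35.2 CPM (31.2 to 39.6), just inside the threshold at a log2 difference of 0.58. It was inside only through the added 1 CPM, and its intervals did not overlap. Bnip3, a mitophagy receptor, read 137 and 147 CPM, and Vegfa read 50.8 and 55.6. Adm, the vasodilator adrenomedullin, was under 10 CPM in both, and stood at 135 and 243 CPM in melanocytic cells.

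**Figure D2:**
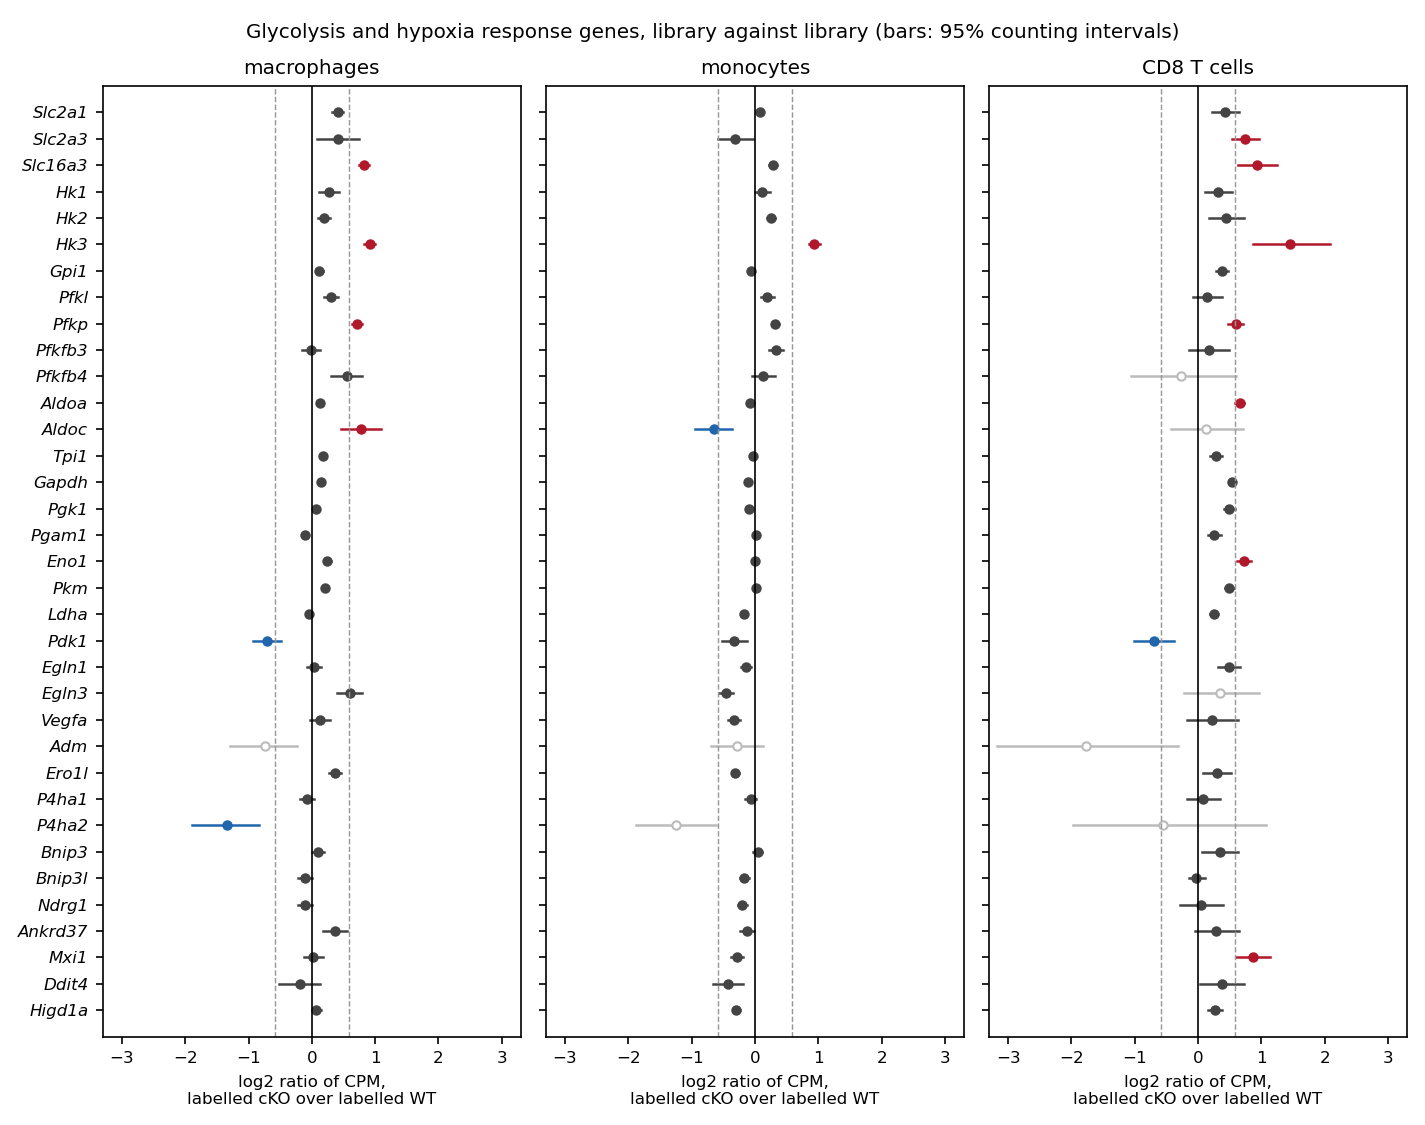
Log2 ratio of CPM, the library labelled cKO over the library labelled WT, for each gene in macrophages, monocytes and CD8 T cells, with bars for the 95% counting interval and dashed lines at 1.5-fold. Red points were called higher, blue lower, and open grey points were under 10 CPM in both libraries; Hk3 is red in all 3 panels, and in CD8 T cells all filled points of the glycolysis and transporter genes lie right of 0.

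In monocytes, Hk3 alone was called higher, and the hypoxia response genes leaned the other way. Of the 18 glycolysis and transporter genes, 1 was higher (3.31% of 7349 genes tested) and 1 lower (2.26%), with a median log2 ratio of 0.01. Of the 15 hypoxia response genes tested, 0 were called in either direction, with a median of −0.20 and 3 above 0, beside −0.09 for all genes tested. Hk3 stood at 79.3 CPM (74.96 to 83.8) in the library labelled WT against 152 CPM (147 to 156) in that labelled cKO, a ratio of 1.91 (1.798 to 2.04). Its log2 ratio stayed between 0.82 and 1.02 under every alternative, Leiden clusters included. In dendritic cells Hk3 stood at 11.2 CPM (8.47 to 14.6) and 36.9 CPM (31.9 to 42.5). It read 105 and 145 CPM in neutrophils, and 5.86 and 4.63 in B cells. Aldoc, the gene called lower, stood at 10.9 CPM (9.32 to 12.6) and 6.92 CPM (6.05 to 7.88), so it was tested through the library labelled WT alone, and 6 of its alternatives ended the call, with log2 ratios down to −0.30 at a pseudocount of 10 CPM.

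The monocyte values of the hypoxia response genes lay close together. Egln3 had the lowest ratio of those tested, with 63.9 CPM (60.1 to 67.98) and 46.5 CPM (44.2 to 48.9). Vegfa stood at 94.95 CPM (90.2 to 99.9) and 75.5 CPM (72.5 to 78.5), and Ero1l, the oxidase that makes disulphide bonds in the endoplasmic reticulum, at 226 CPM (219 to 233) and 182 CPM (178 to 187). All 3 were within 1.5-fold, with intervals that did not overlap. Bnip3 (143 and 147 CPM) and Slc2a1 (192 and 201) differed less. Thbs1/Inhba/Ptgs2 monocytes, the state richest in these genes, made up 16.8% (15.2 to 18.5) of monocytes in the library labelled WT against 11.4% (10.1 to 12.8) in that labelled cKO. Among cells without any melanocytic UMI the median of the hypoxia response genes was −0.27, and with Leiden clusters −0.07.

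Pfkfb3 and Pfkfb4, the enzymes that set the level of the glycolysis activator fructose 2,6-bisphosphate, were within 1.5-fold in both classes. Pfkfb3 read 67.7 and 67.1 CPM in macrophages and 60.9 and 76.6 in monocytes. Pfkfb4 read 15.1 and 22.03 CPM in macrophages and 22.8 and 25 in monocytes.

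In CD8 T cells, the glycolysis and transporter genes leaned towards the library labelled cKO. Of 17 tested, 6 were called higher (5.73% of 7942 genes tested) and 0 lower (3.7%), all 17 had a log2 ratio above 0, and their median was 0.49 beside 0.05 for all genes tested. Eno1, the main enolase, stood at 183 CPM (170.0 to 196) and 301 CPM (293 to 309.6), a ratio of 1.65 (1.53 to 1.78). Aldoa, the main aldolase, stood at 439.5 CPM (419.7 to 460.0) and 694 CPM (682 to 706), and Slc2a3 at 47.7 CPM (41.3 to 54.8) and 79.9 CPM (75.8 to 84.2). Gapdh, at 1201 and 1747 CPM, fell just short of the call with a ratio of 1.46 (1.41 to 1.5). Eno1 stayed past 1.5-fold under all its alternatives, Aldoa fell to 0.58 with Leiden clusters and Slc2a3 to 0.53 with doubled marker minima. Pfkp, with a ratio of 1.51 (1.39 to 1.64), lay at the threshold and left it under 6 alternatives. The 16 genes of the dissociation response had a median of 0.28 in these cells, with 14 above 0 and 1 called higher. In other T cells 1 of 18 glycolysis and transporter genes, Hk3, was called higher (2.29% of genes tested) and 0 lower (1.86%), with a median of 0.18. Hk3 stood there at 9.8 and 17.4 CPM and so reached 10 CPM in the library labelled cKO alone. In dendritic cells the median of the group was 0.26 with 16 of 18 above 0, beside −0.05 for all genes. Melanocytic cells had 0.35 with 14 of 17 above 0, beside −0.07. B cells had −0.46 with 3 of 16 above 0, beside −0.06.

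Hk3 and Slc16a3, higher in myeloid than in lymphoid classes, were also called higher in CD8 T cells. Hk3 stood at 6.2 CPM (4.05 to 9.08) and 16.9 CPM (15.02 to 18.9), and Slc16a3 at 23.4 CPM (18.97 to 28.5) and 44.5 CPM (41.4 to 47.7). With Leiden clusters both log2 ratios were 0.15, and with cells thinned before gating they were 0.28 and 0.49. In these cells the 6 macrophage markers summed to 682 and 210 CPM and the 5 monocyte markers, which include Ly6c2, to 1630.5 and 2907 CPM, with none at 0, and their part in these values was not tested. Hk3 reached 10 CPM only in the library labelled cKO, and 5 of the 6 genes called higher reached it in both. Of the 13 hypoxia response genes tested, 1 was higher and 1 lower. Mxi1, a MYC antagonist, stood at 30.8 CPM (25.7 to 36.6) and 55.9 CPM (52.4 to 59.5), and was past 1.5-fold under every alternative. Pdk1 was lower, at 28.4 CPM (23.5 to 33.96) and 17.5 CPM (15.6 to 19.6), and fell within 1.5-fold under 4 alternatives, with log2 ratios down to −0.46 with Leiden clusters. The median of the hypoxia response genes was 0.26. With Leiden clusters the median of the glycolysis and transporter genes was 0.29, and with cells thinned before gating 0.39.

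Few members were called in NK cells, and in neutrophils their counts lay near the background. In NK cells 1 of 17 glycolysis and transporter genes was called higher (1.76% of 7833 genes tested) and 0 lower (2.77%), with a median log2 ratio of 0.22 beside −0.06 for all genes tested. The gene was Slc16a3, at 13.5 CPM (10.48 to 17.2) and 25.3 CPM (22.3 to 28.6), and 6 alternatives ended the call, Leiden clusters with 0.12. None of 14 hypoxia response genes was called in NK cells, and Vegfa reached a ratio of 1.39 (1.29 to 1.49). In neutrophils, Pfkp was the gene called higher (12.5% of 7763 genes tested were), at 189.6 CPM (165 to 216) and 336 CPM (299 to 376). There, 1 glycolysis and transporter gene (Slc2a3) and 3 of 16 hypoxia response genes (Adm, P4ha1 and Ddit4) were called lower (15.8%). Both sides reached 10 CPM for 2 of the 3 hypoxia response genes called lower, since Adm reached it on 1 side only. These shares over all genes came with 81 cells in the library labelled cKO, and the Adm reading rested on 15 and 4 UMIs. The median log2 ratio in neutrophils was 0.01 for the glycolysis and transporter genes and −0.31 for the hypoxia response genes, beside −0.04 for all genes tested. In neutrophils the 6 macrophage markers summed to 4391 and 1442 CPM and the 5 monocyte markers to 2639 and 5392 CPM, and their part in these values was not tested.

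Within each library, the monocyte states differed in more of these genes than the libraries did. The reference was Ly6c2/Vcan monocytes (913 and 1087 cells), monocytes newly arrived in tissue by their known markers. Thbs1/Inhba/Ptgs2 monocytes (337 and 268 cells), gated on inflammatory and matrix genes outside the set, were higher for most members. In the library labelled WT, 14 of 18 glycolysis and transporter genes and 13 of 16 hypoxia response genes were higher, where 5.66% of 7471 genes tested were. The counts were 7 of 17 and 11 of 15 in the library labelled cKO, against 4.48% of 7143 genes. All 7 and all 11 were among those higher in the library labelled WT. Both sides reached 10 CPM for 13 and 12 of those labelled WT and 6 and 11 of those labelled cKO. Median log2 ratios were 0.80 and 1.196 in the library labelled WT (−0.16 for all genes) and 0.56 and 0.93 in the library labelled cKO (−0.13).

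**Figure D3:**
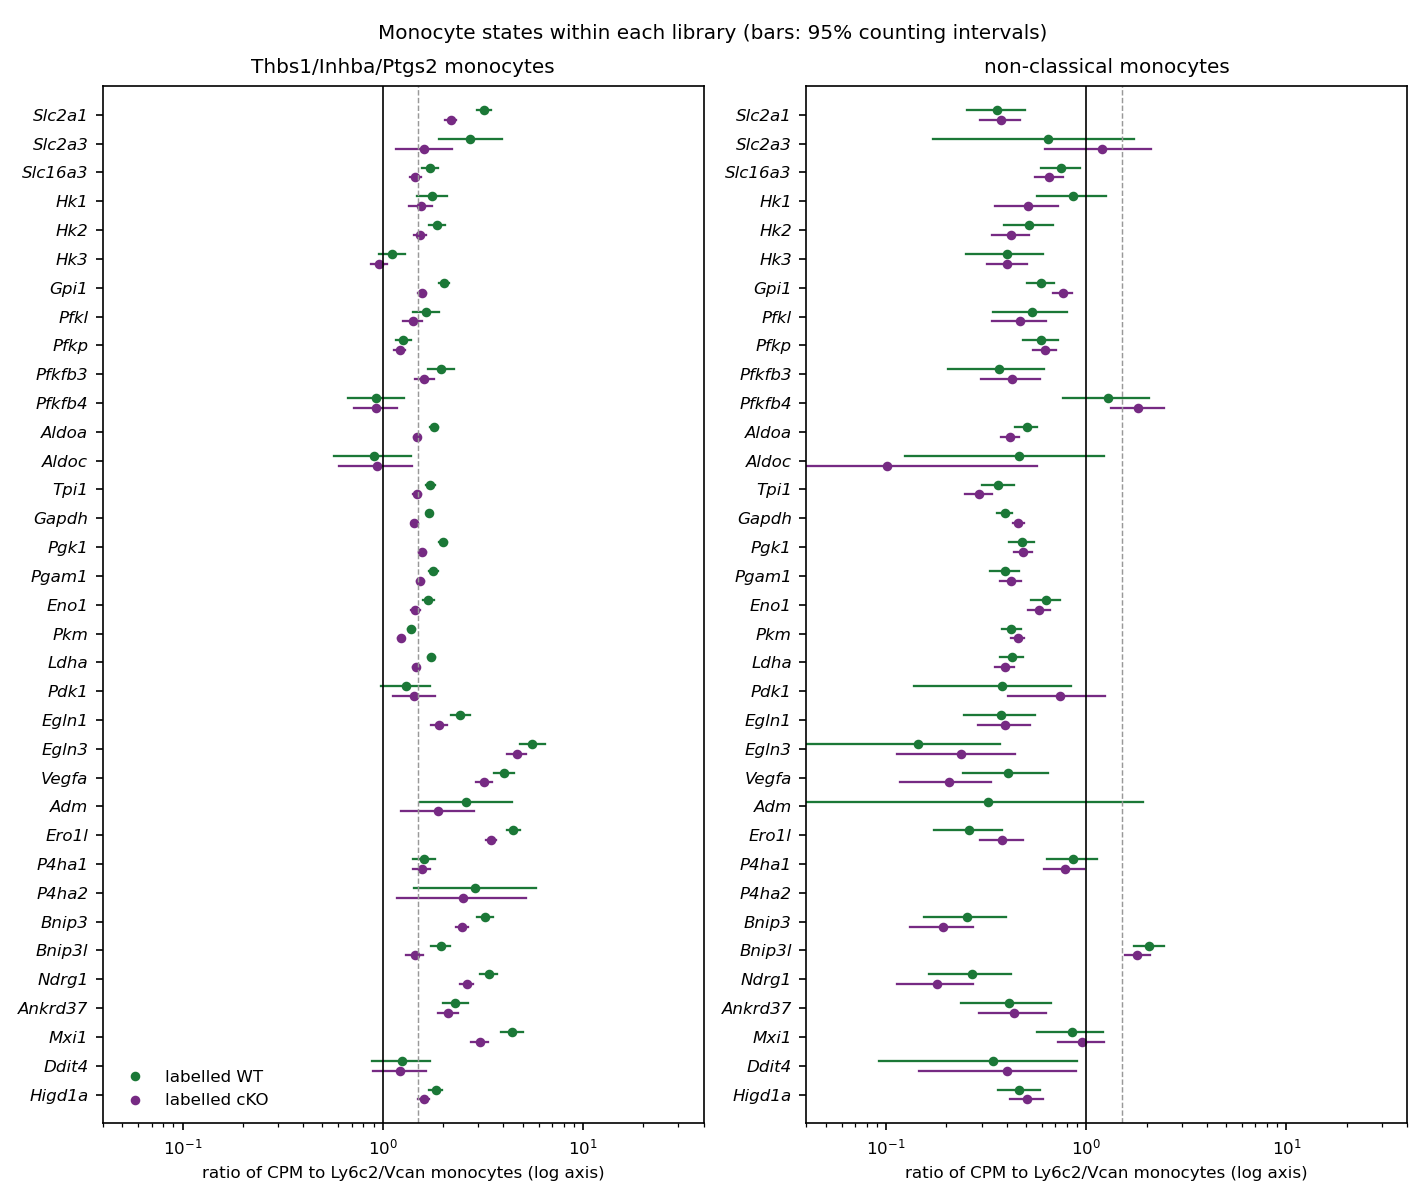
Ratio of CPM to Ly6c2/Vcan monocytes for Thbs1/Inhba/Ptgs2 monocytes (left) and non-classical monocytes (right), on log axes, with 95% counting intervals; green is the library labelled WT, purple the library labelled cKO and the dashed line 1.5-fold. Egln3, Ero1l, Mxi1 and Vegfa lie farthest right in the left panel, while in the right panel Bnip3l and Pfkfb4 stand right of 1 and most other genes left of it.

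The HIF targets led. Egln3 went from 38.6 CPM in Ly6c2/Vcan monocytes to 215 CPM in Thbs1/Inhba/Ptgs2 monocytes in the library labelled WT, a ratio of 5.57 (4.84 to 6.43), and from 36.5 to 169.9 CPM in the library labelled cKO, with a ratio of 4.66 (4.16 to 5.22). Ero1l followed with ratios of 4.49 (4.17 to 4.84) and 3.47 (3.28 to 3.68). Vegfa went from 64.99 to 263 and from 67.4 to 217 CPM. Ndrg1, a growth-arrest gene used as a marker of low oxygen, reached 3.38 and 2.63, and Bnip3 3.25 and 2.49.

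Of the transporters, Slc2a1 went from 147 to 472 CPM, a ratio of 3.21 (2.96 to 3.48), and from 190.4 to 416 CPM, a ratio of 2.19 (2.06 to 2.33). The enzymes moved by less, Pgk1, a kinase that yields ATP, by 2.001 and 1.58 and Pkm, the enzyme that makes pyruvate, by 1.39 and 1.23. The ratio stayed near 1 for Hk3, at 1.11 (0.952 to 1.296) and 0.959 (0.876 to 1.05), for Pfkfb4, at 0.929 and 0.921, and for Aldoc, at 0.901 and 0.933. Hk3 was thus past 1.5-fold between the libraries in monocytes and within it between these states.

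Chil3/Hp monocytes (398 and 645 cells), which carry the markers of monocytes just out of the marrow, were lower for some members. In the library labelled WT, 4 of 17 glycolysis and transporter genes and 7 of 15 hypoxia response genes were lower, where 6.18% of genes tested were. For the library labelled cKO these were 3 of 16 and 6 of 15, against 4.61%. Both sides reached 10 CPM for 3 and 6 of these genes, and for 3 and 5. Ero1l stood at 0.631 and 0.575 of the reference level, and Tpi1, the triose isomerase, at 0.557 and 0.592.

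Non-classical monocytes (129 and 124 cells), gated on known markers of the patrolling subset, were lower for most members. The 5 monocyte markers, which include Ly6c2, still summed to 6210 and 6903 CPM in them, against 7252 and 7935 CPM in the reference. In non-classical monocytes 15 of 17 glycolysis and transporter genes were lower in both libraries. Of 15 hypoxia response genes, 11 were lower in the library labelled WT and 10 in that labelled cKO. Over all genes 18% and 13.9% were lower. Both sides reached 10 CPM for 14 and 15 of the glycolysis and transporter genes and for 8 and 8 of the hypoxia response genes. Egln3 stood at 0.144 (0.039 to 0.372) and 0.238 (0.113 to 0.44) of the reference level, Bnip3 at 0.254 (0.154 to 0.395) and 0.192 (0.131 to 0.272), and Ndrg1 at 0.27 and 0.18. P4ha2 was listed at 0 UMIs in non-classical monocytes of both libraries, but its reference level was only 2.4 and 1.43 CPM, under the minimum. Its ratio intervals ran from 0 to 2.36 and from 0 to 2.42, so this 0 gives no direction. Bnip3l, a relative of Bnip3 and mitophagy receptor known from red cell maturation, went the other way, from 107 to 219 CPM, a ratio of 2.06 (1.73 to 2.44), and from 106 to 191 CPM, a ratio of 1.801 (1.56 to 2.07). Pfkfb4 had ratios of 1.29 (0.767 to 2.05) and 1.82 (1.33 to 2.45), and Mxi1 stayed near the reference at 0.845 and 0.952.

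Among macrophages, the reference was the C1q non-cycling cells (1645 and 353). Mmp12/Arg1 macrophages (134 and 25 cells), gated on a matrix protease and arginase, were also higher for many members in the library labelled WT. In that library 11 of 17 genes of each group were higher, where 4.04% of genes tested were. With only 25 cells, 2 of 18 and 3 of 16 were higher in the library labelled cKO, against 11.6%, and 3 of the 16 hypoxia response genes were lower. Both sides reached 10 CPM for 11 and 10 of the genes higher in the library labelled WT. For the library labelled cKO they did for 2 and 2 of those higher and for 2 of those lower. Egln3 went from 22.4 to 89.3 CPM in the library labelled WT, a ratio of 3.98 (3.36 to 4.68), and from 36.8 to 37.8 CPM in the library labelled cKO, with a ratio of 1.03 (0.599 to 1.66). Slc2a1 had ratios of 2.39 (2.19 to 2.61) and 1.03 (0.818 to 1.29), and Vegfa of 2.69 (2.36 to 3.04) and 0.829 (0.519 to 1.26). The intervals of the libraries did not overlap for these 3 genes. The 3 genes of the Thbs1 gate went with them, from 244 to 778 CPM in the library labelled WT and from 498 to 487 CPM in that labelled cKO. The 5 monocyte markers stood at 1421 and 4332 CPM in the C1q non-cycling cells of the libraries, and the part of either set was not tested. Marker minima doubled left 8 cells and 5 and 9 genes called in the library labelled cKO, so these counts rest on few cells.

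Cycling macrophages (485 and 37 cells) had less of several hypoxia response genes. Of the glycolysis and transporter genes, 0 of 16 were lower in the library labelled WT and 3 of 18 in that labelled cKO. Of the hypoxia response genes, 5 of 16 and 5 of 15 were, and over all genes 2.55% and 9.18%. Both sides reached 10 CPM for 2 of the 3 glycolysis and transporter genes, and for 4 and 5 of the hypoxia response genes. Median log2 ratios of the glycolysis and transporter genes were −0.10 and −0.21, beside 0.03 and 0.13 for all genes, and Hk1 stood at 0.993 (0.888 to 1.11) and 0.629 (0.429 to 0.897) of the level in non-cycling cells. Vegfa stood at 0.56 (0.495 to 0.633) of the level in non-cycling cells in the library labelled WT, Egln3 at 0.56 and Ndrg1 at 0.616, while Gapdh stood at 1.00 and Pgk1 at 1.02. These 5 genes stood, for the library labelled cKO, at 0.723, 0.654, 0.647, 0.994 and 0.883. Cycling cells made up 21.4% of macrophages labelled WT and 8.92% of those labelled cKO.

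To see which members went with Bnip3 from cell to cell, cells were thinned to a common number of UMIs (5061 for monocytes, 6264 for macrophages) and divided by whether a Bnip3 UMI was left. In monocytes, 1066 cells without and 537 with Bnip3 were compared in the library labelled WT, against 1462 and 732 in that labelled cKO. Cells with Bnip3 were higher for 16 of 18 glycolysis and transporter genes and 13 of 14 hypoxia response genes in the library labelled WT, where 6.08% of genes tested were. In the library labelled cKO the counts were 17 of 17 and 13 of 15, against 5.28%. Median log2 ratios were 1.17 and 1.43 in the library labelled WT against 1.17 and 1.51 in that labelled cKO, beside −0.11 and −0.10 for all genes. Both sides reached 10 CPM for 14 and 12 of the genes called in the library labelled WT, and for 16 and 11 in that labelled cKO. Bnip3 chose the cells and was left out of its group.

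**Figure D4:**
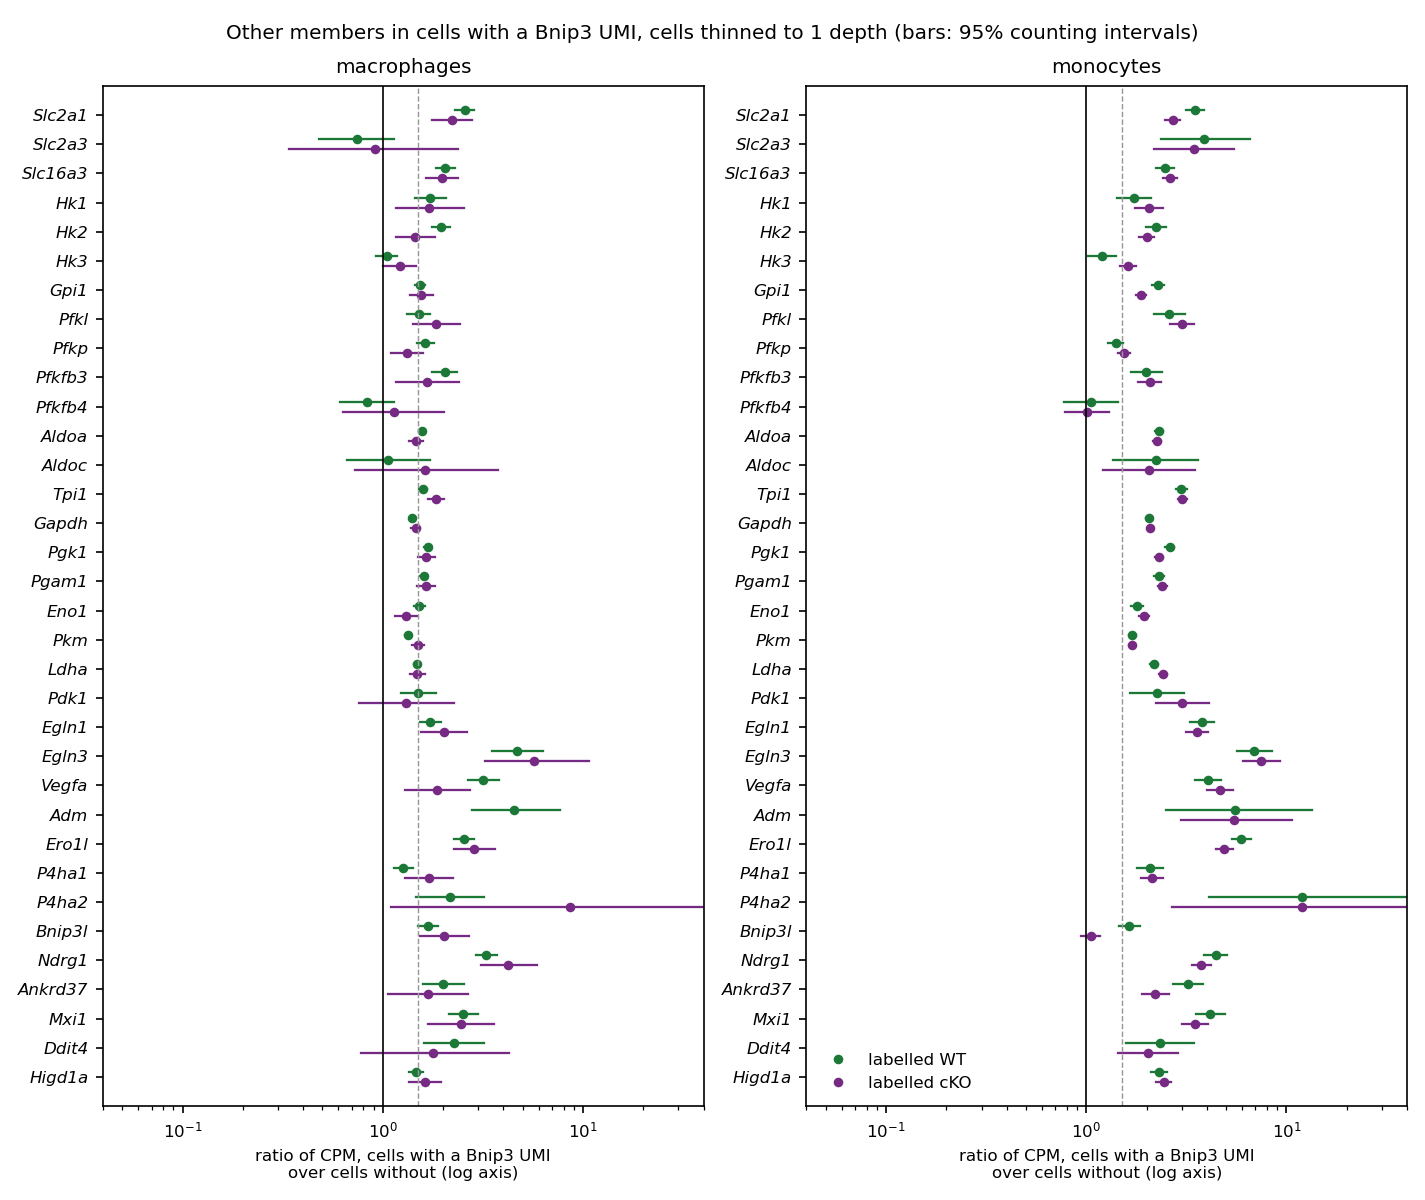
Ratio of CPM in cells with a Bnip3 UMI to cells without, after thinning to 1 depth per class, for macrophages (left) and monocytes (right) on log axes, with 95% counting intervals; green is the library labelled WT, purple the library labelled cKO and the dashed line 1.5-fold. Most genes lie right of the line in monocytes, with Egln3 and Ero1l far right, and Pfkfb4 lies at 1.

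Egln3 stood at 23.7 CPM in monocytes without a Bnip3 UMI and 163 CPM in monocytes with one in the library labelled WT, a ratio of 6.87 (5.63 to 8.43). In the other library, labelled cKO, it stood at 15.5 and 116 CPM, a ratio of 7.47 (6.07 to 9.26). Ero1l had ratios of 5.95 (5.35 to 6.62) and 4.89 (4.44 to 5.39). P4ha2 had the highest ratio in both libraries, 11.9 (4.09 to 47.2) and 11.99 (2.67 to 110.3). It rested on 4 UMIs without and 24 with Bnip3 in the library labelled WT, and on 2 and 12 in that labelled cKO. P4ha2 was under 10 CPM on both sides in each library, so it was not among the genes tested. Slc2a1 reached 3.47 and 2.699, Tpi1 2.98 and 3.02, and Slc16a3 2.47 and 2.62. Pfkfb4 stayed at 1.06 (0.772 to 1.44) and 1.01 (0.783 to 1.29). Bnip3l stood at 1.64 (1.45 to 1.85) in the library labelled WT against 1.05 (0.938 to 1.17) in that labelled cKO.

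In macrophages the same division gave smaller ratios. There were 1017 cells without and 794 with Bnip3 in the library labelled WT, against 185 and 151 in that labelled cKO. Higher were 12 of 16 glycolysis and transporter genes and 12 of 16 hypoxia response genes in the library labelled WT (1.88% of all genes tested), and 9 of 18 and 13 of 15 in the library labelled cKO (7.19%). Both sides reached 10 CPM for 12 and 8 of these, and for 9 and 11. Egln3 had ratios of 4.69 (3.53 to 6.32) and 5.72 (3.24 to 10.8), Ndrg1 of 3.29 and 4.23, Slc2a1 of 2.57 and 2.22 and Slc16a3 of 2.05 and 1.98. Hk3 stood at 1.05 (0.927 to 1.18) and 1.21 (1 to 1.47), so it went with Bnip3 less than the other members named here.

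The division was repeated inside single states. Within Ly6c2/Vcan monocytes of the library labelled WT, 16 of 18 glycolysis and transporter genes and 12 of 14 hypoxia response genes were higher in cells with Bnip3, where 6.69% of genes tested were. In those labelled cKO 16 of 18 and 13 of 15 were, against 6.06%. Within C1q non-cycling macrophages the counts were 10 of 16 and 12 of 16 for the label WT (1.74%) and 12 of 18 and 10 of 14 for the label cKO (7.89%). Of these, all but 1 glycolysis and transporter gene in each of WT macrophages and cKO monocytes, and 3 in cKO macrophages, were also called in the whole class. The counts of other lists were taken in the whole classes. Over all genes tested there, 6.08% and 5.28% were higher in monocytes with Bnip3 and 1.88% and 7.19% in macrophages, labels WT and cKO in turn. Of 16 genes known to respond to tissue dissociation, 2 and 0 were higher in monocytes with Bnip3 and 0 and 3 in macrophages. Of the further hypoxia genes outside the set, 15 of 20 and 12 of 17 were higher in monocytes, and 9 and 11 of 19 in macrophages. Of the genes of the oxygen-sensing machinery, such as Hif1a and Vhl, 1 of 6 and 0 of 6 were higher in monocytes, and 0 of 6 and 0 of 5 in macrophages.

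The share of cells with a UMI was compared at the same matched depths, which left out 453 and 79 macrophages and 401 and 157 monocytes. Slc2a1 was found in 42.8% (40.6 to 45.2) of macrophages in the library labelled WT and in 52.98% (47.5 to 58.4) in that labelled cKO, and in 43.7% (41.3 to 46.2) and 51.2% (49.1 to 53.3) of monocytes. Before thinning, when the monocytes had median depths of 7131.5 and 12697 UMIs, the shares were 51.2% and 70.4% in monocytes, and the macrophage shares 58.97% and 69.4% at 15349.5 and 14045. Of B cells, which should have little of it, 8.597% (5.26 to 13.1) and 3.49% (1.29 to 7.44) had a Slc2a1 UMI at 1937 UMIs, before thinning 9.42% and 7.95% at median depths of 2275 and 3494.5. Slc2a1 was therefore found in more cells of the library labelled cKO in both myeloid classes, beyond counting error.

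The hypoxia markers gave closer shares. Bnip3 was found in 43.8% (41.5 to 46.2) and 44.9% (39.5 to 50.4) of macrophages and in 33.5% (31.2 to 35.9) and 33.4% (31.4 to 35.4) of monocytes, with B cells at 1.81% and 2.91%. Ndrg1 was found in 34.5% and 33.6% of macrophages and 31.7% and 30.7% of monocytes, with B cells at 0.905% and 1.74%. These shares nearly coincide between the libraries. Egln3 was found in 11.4% (9.95 to 12.9) and 14.9% (11.3 to 19.1) of macrophages and 17.5% (15.6 to 19.4) and 14.3% (12.9 to 15.8) of monocytes. It was found in 0 of 221 and 0 of 172 B cells, which allows shares of up to 1.36% and 1.74% by a limit of 3 counts and of 1.66% and 2.12% by the exact interval. Vegfa was found in 19.5% (17.7 to 21.4) and 18.2% (14.2 to 22.7) of macrophages and 22.6% (20.6 to 24.8) and 19.6% (17.9 to 21.3) of monocytes, with B cells at 0.905% in the library labelled WT and at 0 of 172 in that labelled cKO. Adm, at 3.92% and 2.08% of macrophages and 1.68% and 1.37% of monocytes, lay near the B cell shares of 1.36% and 1.74% read at the lower depth, and its levels are not read as expression of these cells.

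Other genes of the pathway were read from lists outside the set. Of 10 further glycolysis genes tested in macrophages, 2 were called higher in the library labelled cKO (Eno2 and Slc2a6) and 0 lower, and of 9 in monocytes 2 were higher (Eno2 and Ldhb) and 0 lower. The shares of all genes called, for these and the lists below, were again 8.58% higher and 10.1% lower in macrophages and 3.31% and 2.26% in monocytes. Eno2, the enolase best known from neurons, stood at 0.775 CPM (0.53 to 1.09) and 16.01 CPM (13.3 to 19.1) in macrophages and at 0.944 CPM (0.528 to 1.56) and 12.8 CPM (11.6 to 14.1) in monocytes. It was near 1 CPM in the library labelled WT in both classes and above 10 CPM in the library labelled cKO. Eno2 was thus tested through the latter alone. It read 0 (0 to 3.19) and 8.81 CPM in neutrophils, 0.715 and 3.77 in CD8 T cells and 0.834 and 4.62 in other T cells. In NK cells it read 0.205 and 1.95 CPM, in dendritic cells 1.84 and 6.12 and in melanocytic cells 12.8 and 23.98. B cells went the other way, at 1.46 and 0 CPM (0 to 5.69). Slc2a6, a transporter of phagocyte lysosomes, stood at 4.22 and 14.99 CPM in macrophages, a ratio of 3.55 (2.79 to 4.52). It too reached 10 CPM only in the library labelled cKO, so neither macrophage call had both sides at that minimum. Of the 2 monocyte calls, Ldhb, at 13.03 and 21.7 CPM, reached it in both libraries.

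Of 6 oxygen-sensing genes tested in each class, Vhl, the ubiquitin ligase that removes HIF-1α, was called higher in macrophages at 14.9 and 24.3 CPM, and none was called in monocytes. Hif1a, which encodes HIF-1α, read 114 and 158 CPM in macrophages, a ratio of 1.38 (1.3 to 1.47), and 214 and 234 in monocytes. Of 17 further hypoxia genes tested in macrophages, 4 were higher (Bhlhe40, Ier3, Maff and Nos2) and 3 lower (Plod1, Tfrc and Hmox1). Nos2, which makes nitric oxide, stood at 6.74 and 27.8 CPM, and Hmox1, which degrades haem, at 740.1 and 453. Nos2 reached 10 CPM only in the library labelled cKO, and the other further hypoxia genes called in macrophages reached it in both. Of 18 in monocytes 0 were higher and 2 lower, Hilpda, a lipid droplet protein, at 285 and 170.5 CPM and Hmox1 at 443 and 291. Of 16 genes of the dissociation response, 3 were higher and 1 lower in macrophages and none was called in monocytes.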

How the data were processed

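Gene expression was measured in single CD45+ cells sorted from tumours, in 1 library labelled WT and 1 labelled Ythdf2 cKO. The values are UMI counts per gene and cell as deposited by the authors, who used Cell Ranger 5.0.1 and Seurat 4.0.4 with the genome build mm10, per the submitters' processing notes; the matrices were written by Cell Ranger 5.0.0, per the file headers. The counts were not normalized, and which tool did which step is not stated in the sources used here.

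Cells with at least 200 genes and at most 10% mitochondrial UMIs were kept. Classes and states were gated on marker UMIs per 10000. Cells that passed the gates of more than 1 lineage were left out, 1034 labelled WT and 624 labelled cKO, and 1354 and 1097 cells stayed unassigned. No doublet caller was used except as an alternative. Gates were adjusted once, after the data were seen: Fcer1g was dropped from the lineage genes that exclude NK cells, and the neutrophil minimum was lowered to 30. The promoter window was also shortened then to 250 bases. Summed UMIs of each class in a library were scaled to CPM. Ratios carry conditional binomial intervals at 95%, calls used a pseudocount of 1 CPM, a fold of 1.5 and a minimum of 10 CPM, and a count of 0 was given a limit of 3 counts. Depth was matched by thinning each class to the percentile 20 of its cells' UMIs, with shallower cells left out. The computation was tested on simulated data. It used scanpy 1.11.5, numpy 2.4.6, scipy 1.17.1 and pandas 2.3.3.

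All 35 members were covered. Full values were given in macrophages and monocytes for members of at least 50 UMIs that were at least 1.5-fold apart and for the highest and lowest of each group, and others were given as examples of their roles. The members, the lists and the alternatives were chosen with earlier results of these data known. The alternatives for CD8 T cells, NK cells, states and the division by Bnip3 were chosen after seeing the data. Stretches of 50 bases shared between genes were counted in GENCODE vM21 transcripts.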

Additional observations from a re-analysis of the deposited data

How the results depend on the processing

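The median log2 ratios of both gene groups in 5 classes were recomputed under the alternatives. Of 114 values, 101 lay between the median lower bound and the median upper bound of the single-gene intervals. That range is not an interval of the median itself. The neutrophil median of the glycolysis and transporter genes, 0.01 as reported, took both signs. With Leiden clusters the medians of the glycolysis and transporter genes were 0.29 in CD8 T cells, 0.11 in macrophages and 0.11 in monocytes, and that of the hypoxia response genes in monocytes was −0.065. Leiden macrophages numbered 3193 and 470 cells, with median depths of 15125 and 3196 UMIs. With all cells thinned before gating the glycolysis and transporter genes had medians of 0.39 in CD8 T cells and −0.18 in neutrophils. With equal weight per cell the neutrophil median was −0.17, and with doubled marker minima 0.23. With median-of-ratios scaling the glycolysis and transporter genes had 0.32 in macrophages and 0.095 in monocytes, and the hypoxia response genes −0.11 in monocytes. Without cells holding melanocytic UMIs the hypoxia response genes had −0.27 in monocytes, and with states weighted as in the library labelled WT the glycolysis and transporter genes had 0.052 there. Of the 178 values of single genes, 144 stayed within the counting interval of the gene and 34 moved, none of them reversed. Of the 84 counts of genes called between states or by Bnip3, 76 stayed within 1.5 times. In the library labelled cKO doubled minima gave 11 glycolysis and transporter genes higher in Thbs1/Inhba/Ptgs2 monocytes, 7 lower in Chil3/Hp monocytes, and 5 of them and 9 hypoxia response genes higher in Mmp12/Arg1 macrophages. Without cells holding melanocytic UMIs, 1 was lower in Chil3/Hp monocytes and 5 were higher in Mmp12/Arg1 macrophages. In the library labelled WT the 0 such genes lower in cycling macrophages became 2 with doubled minima and 1 without melanocytic UMIs. The cause of these shifts was not tested. Leaving out a replicate was not possible with 1 library per label. No paired analysis was possible because the labels hold 1 library each.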
